A study of Mus musculus with 8 samples.

Results

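The genes Alox12b, Sdr9c7, Sult2b1 and Alox15 encode enzymes that oxidise or sulfate lipids. All 4 were read in ear skin of mice in which the corneodesmosin gene Cdsn was targeted in the epidermis, and of control mice. They are the probe sets that carry those symbols in the authors' deposited table of differences, 1 probe set per gene, so 4 of the 3411 probe sets and 4 of the 3024 gene symbols in that table, out of 33793 probe sets measured. The table holds only probe sets with an adjusted p under 0.05 and a log2 difference of at least 0.5, so the KO against WT difference chose these genes and is given here as a description, with no test. No filter on low values was applied in the main fit. All 4 genes also stayed in the alternative fit that left out dim probe sets.

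The KO group was 4 mice of genotype KRT14-CreERT2(tg/0)/Cdsnfl/fl and the WT group was 4 mice of genotype KRT14-CreERT2(tg/0)/Cdsnwt/wt, all adult, 7 to 12 weeks old, on a C57B/6J background. Both groups thus carried the tamoxifen-dependent Cre recombinase under the KRT14 promoter, whose activity lies in the basal layer of the epidermis. All mice received 4-hydroxytamoxifen on the ears, 100 µg per ear and day for at most 15 days. RNA came from whole ear skin, which also holds dermis, muscle, cartilage and immune cells in which this promoter is not active. The labels give each array a replicate number within its group, and they give neither sex nor litter.

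Alox12b makes the first change to the ceramides of the skin barrier: it adds oxygen to the linoleic acid that is esterified to their long fatty acid. Its partner Aloxe3 rearranges the product to an epoxyalcohol, and Sdr9c7, a short-chain dehydrogenase, oxidises that to an epoxyketone before the ceramide is joined to proteins of the cornified envelope. Inherited loss of Alox12b or Sdr9c7 function causes ichthyosis in humans. Sult2b1 attaches sulfate to cholesterol in the upper epidermis, and the cholesterol sulfate it makes restrains the proteases that cleave corneodesmosomes. Alox15 is the leukocyte-type lipoxygenase of the mouse, known from macrophages and eosinophils, and it oxygenates free polyunsaturated fatty acids.

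Transcription start regions are shown for the genes that RefSeq lists in the promoter set used here, so that the sequence before genes that were higher together can be read. Each window runs from 250 bases before to 50 bases after a start, on the GRCm38.p6 build and the gene's own strand, and capitals mark the motif matches described after the sequences. Alox12b is at chr11:69156822-69157121 (plus strand), Sdr9c7 at chr10:127898285-127898584 (plus strand), and Sult2b1 (minus strand) has a start at chr7:45742429-45742728 and another at chr7:45759563-45759862.
Alox12b: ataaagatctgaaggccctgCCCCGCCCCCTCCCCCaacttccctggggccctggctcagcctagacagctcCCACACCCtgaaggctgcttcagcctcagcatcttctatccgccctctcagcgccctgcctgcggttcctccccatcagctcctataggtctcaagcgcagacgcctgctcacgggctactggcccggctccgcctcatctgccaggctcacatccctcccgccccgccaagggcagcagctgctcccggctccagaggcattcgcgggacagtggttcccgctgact
Sdr9c7: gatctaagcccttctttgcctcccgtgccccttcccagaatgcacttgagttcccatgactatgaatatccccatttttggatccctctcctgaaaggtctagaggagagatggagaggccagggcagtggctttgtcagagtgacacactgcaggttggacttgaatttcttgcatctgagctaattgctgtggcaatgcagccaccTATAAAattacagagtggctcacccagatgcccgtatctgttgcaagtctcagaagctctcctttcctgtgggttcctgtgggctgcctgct
Sult2b1, chr7:45742429-45742728: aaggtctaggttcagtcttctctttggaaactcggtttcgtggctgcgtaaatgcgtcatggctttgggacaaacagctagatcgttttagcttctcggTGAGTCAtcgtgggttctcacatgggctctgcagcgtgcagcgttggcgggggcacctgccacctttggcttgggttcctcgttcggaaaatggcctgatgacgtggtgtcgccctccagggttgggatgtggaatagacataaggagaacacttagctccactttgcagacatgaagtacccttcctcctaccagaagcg
Sult2b1, chr7:45759563-45759862: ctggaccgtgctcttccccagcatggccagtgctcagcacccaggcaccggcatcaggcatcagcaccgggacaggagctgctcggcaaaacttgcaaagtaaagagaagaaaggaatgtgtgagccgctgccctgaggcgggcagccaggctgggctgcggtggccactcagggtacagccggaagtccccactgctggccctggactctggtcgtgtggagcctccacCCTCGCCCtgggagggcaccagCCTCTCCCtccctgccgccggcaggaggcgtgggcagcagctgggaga

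6 short motifs were searched on both strands of these 4 windows. The promoter set held no window for Alox15, so the start region of that gene was not searched. The AP-1 motif TGANTCA was found once, as TGAGTCA at base 100 of the Sult2b1 window at chr7:45742429-45742728, and 7.81% of all 32851 RefSeq windows of this length hold it. The TATA box TATAAA was found once, at base 209 of the Sdr9c7 window, against 13.6% of all windows. The KLF motif CCNCNCCC gave 5 matches in the Alox12b window, 4 of them overlapping one another, and 2 in the Sult2b1 window at chr7:45759563-45759862. That motif is present in 49.5% of all windows, so a match to it sets these genes little apart. The grainyhead-like motif AACNGGTT (in 2.09% of all windows), the STAT6 motif, TTC and GAA spaced by any 4 bases (6.95%), and the C/EBP motif TTGCNNAA (10.8%) had no match in the 4 windows. GC content was 66.0% for Alox12b, 51.0% for Sdr9c7, and 53.3% and 66.7% for the Sult2b1 starts, against a median of 52.7% over all windows.

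Values are RMA log2 intensities as the authors deposited them, and a difference of 1 is a doubling of intensity. The median array value was 5.52 to 5.59 for KO, against 5.43 to 5.49 for WT. On the leading principal component (50.4% of the variance) WT replicate 1 sat at 2.60, closer to KO replicates 3 and 4 (-4.47 and -6.84) than to its 3 fellow WT arrays (43.5 to 50.5). The KO arrays were split as well, with KO replicates 1 and 2 at -75.3 and -57.8. Cdsn, the targeted gene, fell to 9.63 ± 0.60 in KO, against 12.00 ± 0.16 in WT (SD, 4 arrays each). The Cdsn signal in KO was thus at 19.3% of WT. Its difference was -2.37 with SE 0.26 and a limma adjusted p of 0.00203, and an exact two-sided permutation test gave p = 0.0286, the smallest possible with 4 against 4 arrays. Over all probe sets limma called 4428 of 33793 (13.1%) at an adjusted p under 0.05. Of all probe sets, 3350 (9.91%) were called with KO above WT and 1078 (3.19%) with KO below WT. As each of the 4 genes was chosen by this call, nothing is read from those shares. Quantile normalization turned the split to 1689 higher and 1751 lower, and median centring to 1819 higher and 1598 lower. The median difference over all probe sets was 0.09 as deposited, -0.02 after quantile normalization and -0.005 after median centring. Of the epidermal genes, the suprabasal keratin gene Krt1 averaged 13.00 ± 0.40 in KO and 11.11 ± 0.99 in WT, and the granular layer protease gene Klk7 averaged 12.50 ± 0.26 in KO and 11.74 ± 0.37 in WT (SD, 4 arrays each). Both were admitted to the deposited table as higher, while most of the keratinocyte markers listed below are not in it. With single arrays left out, the call was lost in 5 of 8 fits for Krt1 and 6 for Klk7. In bulk ear skin, more cells of a type and more RNA per cell cannot be told apart.

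Alox12b was higher in KO ear skin by 0.85 log2 units, or 1.81-fold (SE 0.19, 95% interval 0.42 to 1.29). It read 11.25, 11.59, 11.42 and 10.70 on KO arrays 1 to 4, against 10.43, 10.12, 10.50 and 10.49 on WT arrays 1 to 4. KO replicate 4 deviated from the KO mean by -0.54 and came within 0.19 of the highest WT array, and the groups did not overlap. In the authors' deposited table its adjusted p was 0.0223, the value that admitted it, and 2577 probe sets, or 7.63% of all tested, met the same criteria as higher. The probe set has 27 probes of cross-hybridisation class 1, on chromosome 11, where RefSeq places the gene between Aloxe3 and Alox8. Neither neighbour is in the table. Without KO replicate 4 the difference was 1.03, without KO replicate 2 it was 0.74, and the limma adjusted p passed 0.05 without KO replicate 2, KO replicate 3 or WT replicate 2, reaching at most 0.0621. After quantile normalization the difference was 0.66, with an adjusted p of 0.0531.

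Sdr9c7, which acts after the lipoxygenases on the same ceramides, was higher in KO by 0.70 log2 units, or 1.63-fold (SE 0.17, 95% interval 0.32 to 1.09). Its values were 10.86, 11.04, 10.98 and 10.31 in KO, against 10.29, 9.92, 10.09 and 10.06 in WT. KO replicate 4 was again the lowest KO array and lay only 0.01 above WT replicate 1, the highest WT array. The authors' deposited table gives an adjusted p of 0.0291 for it. With single arrays left out the difference ranged from 0.62 to 0.87, and the limma call held only without KO replicate 4 or WT replicate 1. Scaling also ended the call: the difference was 0.53 after quantile normalization (adjusted p = 0.0714) and 0.61 after median centring (adjusted p = 0.0547). RefSeq places Sdr9c7 on chromosome 10 between Rdh7 and Hsd17b6, 2 related dehydrogenase genes that are not in the table.

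Sult2b1, the cholesterol sulfotransferase, was higher in KO by 0.83 log2 units, or 1.78-fold (SE 0.24, 95% interval 0.30 to 1.37), with a mean of 9.69 ± 0.50 in KO against 8.86 ± 0.25 in WT (SD, 4 arrays each). Values were 9.92, 10.26, 9.45 and 9.14 in the KO arrays, against 9.19, 8.85, 8.80 and 8.59 in the WT arrays. This is the one gene of the 4 whose groups overlapped: the lowest KO array minus the highest WT array was -0.05. KO replicates 1 and 2 were the high arrays, and KO replicates 3 and 4 deviated from the KO mean by -0.25 and -0.55. Sult2b1 stands almost at the edge of the authors' deposited table, with an adjusted p of 0.0496 and rank 3399 of 3411. The first probe set left out of the table on adjusted p alone had 0.05002 with a log2 difference of 0.55. The limma call held only without KO replicate 4, where the difference was 1.02, and the adjusted p was 0.0502 to 0.112 with any other array left out. It was 0.0994 after quantile normalization, where the difference was 0.68.

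Alox15 had the largest difference of the 4 genes, 1.15 log2 units or 2.23-fold higher in KO (SE 0.21, 95% interval 0.68 to 1.62). It read 6.53, 6.51, 5.99 and 6.49 on the KO arrays, against 5.76, 4.99, 5.28 and 4.87 on the WT arrays. Here KO replicate 3, not replicate 4, was the lowest KO array, and WT replicate 1 was the highest WT array, 0.23 below it. Over the 8 arrays the Alox15 mean stood at percentile 54.5 of all probe sets, against 98.0 for Alox12b, 97.1 for Sdr9c7 and 91.4 for Sult2b1. Its WT mean of 5.23 lay below the WT array medians of 5.43 to 5.49. No detection call was used, so how far these levels stand above background was not analysed here. The authors' deposited table gives an adjusted p of 0.0108. It was the one gene of the 4 called in each of the 8 fits that left out an array, with differences of 1.03 to 1.33 and an adjusted p of at most 0.0346. It was also called after quantile normalization (1.06, adjusted p = 0.0135) and after median centring (1.06, adjusted p = 0.0131). RefSeq places it on chromosome 11 beside Alox12e, which is not in the table.

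**Figure D1:**
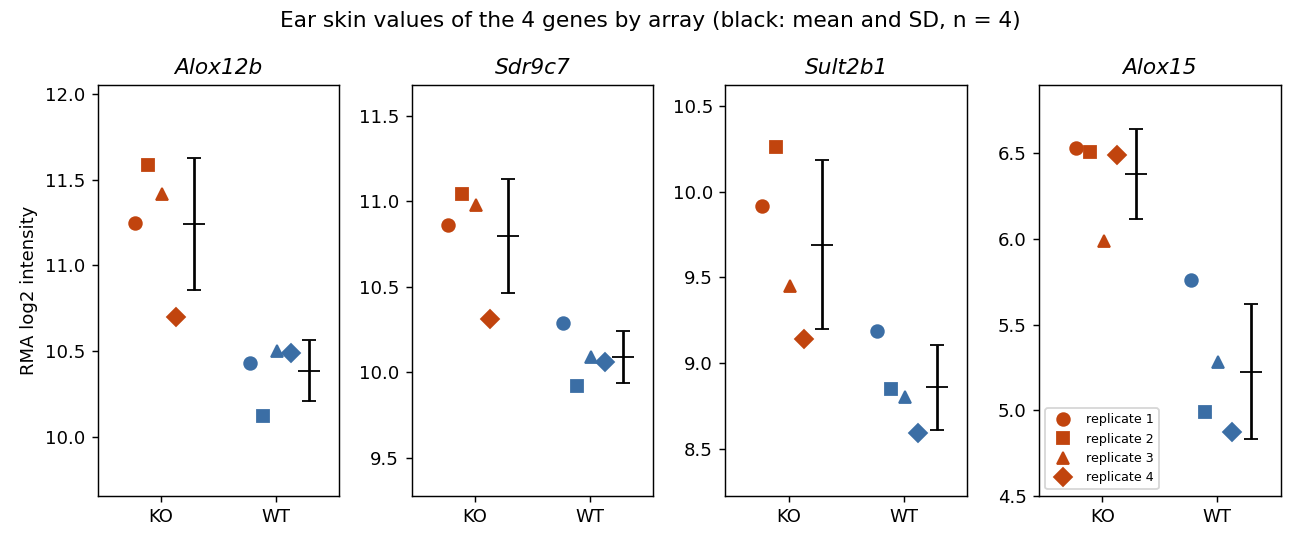
RMA log2 intensity (vertical axis, each panel spanning the same number of log2 units) of Alox12b, Sdr9c7, Sult2b1 and Alox15 in each KO and WT array, with marker shapes for replicate numbers and black bars for mean and SD (n = 4). KO replicate 4 is the lowest KO array for Alox12b (10.70), Sdr9c7 (10.31) and Sult2b1 (9.14), and KO replicate 3 for Alox15 (5.99).

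**Figure D2:**
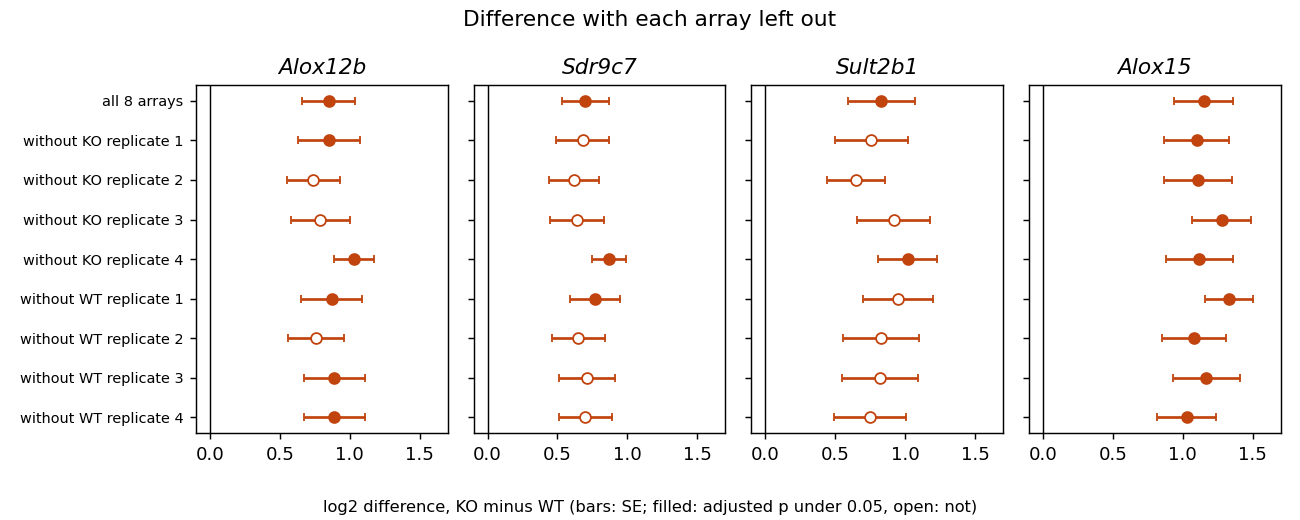
Log2 difference, KO minus WT, with its SE (horizontal axis) for each gene with all 8 arrays and with each array left out (rows); filled points have a limma adjusted p under 0.05. Alox15 is filled in every row, while Sult2b1 is filled with all arrays and without KO replicate 4 only.

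The 4 differences, 0.70 to 1.15, lay close together against their own error, since all of their 95% intervals held the values from 0.68 to 1.09. The table's limit of 0.5 puts them above the median of 0.09 over all probe sets by choice; the 2577 probe sets that the table holds as higher had a median of 0.711, near the low end of the 4. In 3 of the 4 genes all KO arrays lay above all WT arrays, which was so for 15.9% of all probe sets. That share includes no choice by difference, and the genes here were chosen by it. None of the 4 lies on chromosome 17, which carries Cdsn.

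After the group means were subtracted, the arrays ordered the genes differently. Alox12b and Sdr9c7 went together over the 8 arrays (Pearson r = 0.93, Spearman rho = 0.74), with KO replicate 4 at -0.54 and -0.49 and KO replicate 2 at 0.35 and 0.24. The exact permutation p for r was 0.0139 (two-sided, arrays exchanged within groups) and 0.0834 after Benjamini-Hochberg adjustment over the 6 pairs of genes, so it did not pass; for rho it was 0.066 and 0.198. Without KO replicate 4 and WT replicate 2, the arrays farthest from the median for Alox12b, r was 0.40. Leaving out the most extreme arrays also narrows the range, so this value cannot say how far the relation rests on them. With any single array left out r was 0.72 to 0.97, and it was 0.99 over the 4 KO arrays and 0.65 over the 4 WT arrays. Sult2b1 had an r of 0.74 with Sdr9c7 (exact permutation p = 0.0781, adjusted 0.234; rho = 0.76, p = 0.0486, adjusted 0.198; r = 0.59 without those arrays). Its r with Alox12b was 0.62 (exact permutation p = 0.233, adjusted 0.35; rho = 0.33, p = 0.503, adjusted 0.604; r = 0.22 without those arrays). Alox15 had r of -0.04 with Alox12b (exact permutation p = 0.91, adjusted 0.91; rho = -0.21, p = 0.693, adjusted 0.693), 0.14 with Sdr9c7 (p = 0.726, adjusted 0.871; rho = 0.38, p = 0.387, adjusted 0.581) and 0.53 with Sult2b1 (p = 0.135, adjusted 0.27; rho = 0.64, p = 0.128, adjusted 0.256). Without KO replicate 4 and WT replicate 2, r of Alox15 was -0.15 with Alox12b and 0.56 with Sdr9c7. With Sult2b1 it was 0.94 without KO replicates 2 and 4, the arrays farthest from the median for Sult2b1. The median r with the other named genes of the table was 0.134 for Alox12b, 0.15 for Sdr9c7, 0.192 for Sult2b1 and 0.169 for Alox15, and with all other probe sets it was 0.002, 0.006, 0.012 and 0.024 in that order.

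**Figure D3:**
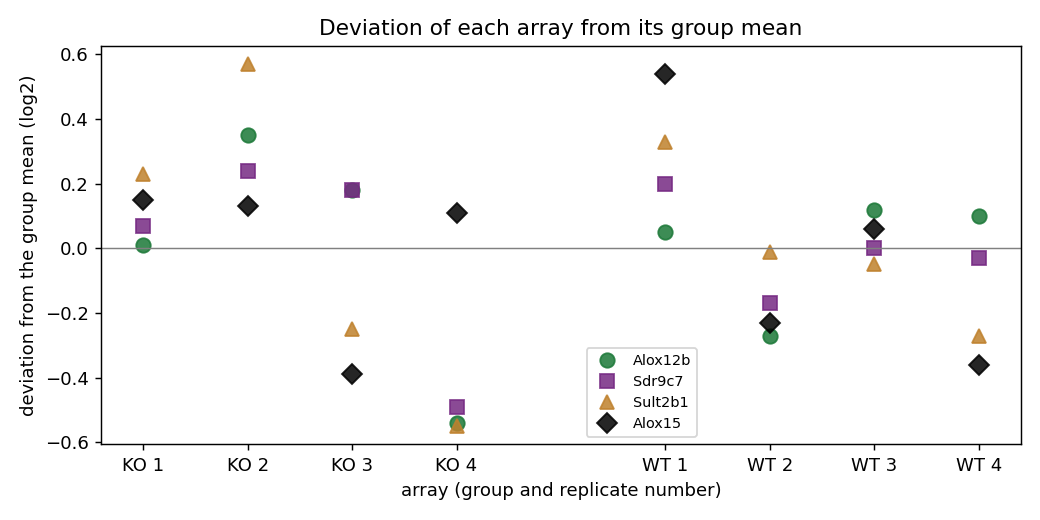
Deviation of each array from the mean of its group (vertical axis, log2) for the 4 genes, with the 4 KO arrays on the left and the 4 WT arrays on the right. In KO replicate 4, Alox12b, Sdr9c7 and Sult2b1 lie at -0.54, -0.49 and -0.55 and Alox15 at 0.11, and in WT replicate 1 Alox15 is the highest of the 4, at 0.54.

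WT replicate 1, which sat apart from the other WT arrays on the leading principal component, moved the genes to different degrees. It lay 53.6% of the way from the mean of the other WT arrays to the KO mean for Alox15, 47.0% for Sult2b1, 34.5% for Sdr9c7 and 7.5% for Alox12b. For the suprabasal keratin gene Krt1 the same position was 81.3%. Over the 5 listed neutrophil markers that were higher in KO it ranged from -26.1% for Camp to 93.9% for S100a8. Without WT replicate 1 the difference was 1.33 for Alox15, 0.95 for Sult2b1, 0.77 for Sdr9c7 and 0.87 for Alox12b, each larger than with it.

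Among all named genes in the table, those whose deviations from the group means were most like each gene's were then listed, 5 for each, out of 3023. They are the best of many over 8 arrays, so they carry no test. For Alox12b they were 4933406J08Rik (r = 0.949), 4933438K21Rik (0.934), Sdr9c7 (0.927), LOC102639814 (0.925) and the olfactory receptor gene Olfr894 (0.925). Of these, LOC102639814 was lower in KO (-0.58). For Sdr9c7 they were Gm19744 (0.949), 9630028H03Rik (0.945), Gm7562 (0.944), Gm10873 (0.944) and the deoxyribonuclease gene Dnase1l2 (0.938), with Alox12b at rank 7. Of these, Gm19744 (-0.71) and 9630028H03Rik (-0.63) were lower in KO. Dnase1l2, which takes part in the removal of DNA from cornifying cells, read 9.31, 10.02, 9.70 and 8.65 in KO and 8.33, 7.89, 7.94 and 7.82 in WT, with KO replicate 4 lowest among the KO arrays as for Sdr9c7. For Sult2b1 the list was the small proline-rich gene Sprr2f (0.995), 8030451A03Rik (0.991), the DNA repair gene Ercc1 (0.989), Cd93 (0.986) and the mast cell tryptase gene Tpsb2 (0.985). Sprr2f read 6.18, 6.80, 5.22 and 4.61 in KO and 4.56, 4.10, 3.89 and 3.37 in WT, the same order of arrays as Sult2b1 within KO and within WT. For Alox15 it was Lrp2bp (0.978), Igkv3-5 (0.952, cross-hybridisation class 3), the transfer RNA processing gene Elac2 (0.950), Gm8675 (0.949, class 3) and the hair follicle keratin gene Krt26 (0.937), with Lrp2bp (-0.70) and Igkv3-5 (-0.92) lower in KO.

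The rest of the pathway can be followed only where the table names a gene, because the other probe sets carry no symbol here. A listed gene not found in the table missed its criteria, was not tested, or is there without a matching symbol. Of the 3411 probe sets in the table, 3220 carry a symbol. Of a list of 8 genes, the lipoxygenases and the 5-lipoxygenase activating protein gene Alox5ap, the table holds Alox12b and Alox15 as higher and none as lower. Of all probe sets it holds 7.63% as higher and 2.47% as lower, and Alox12b and Alox15 were chosen from it. Aloxe3, Alox5, Alox8, Alox12, Alox12e and Alox5ap are not in it. Of 19 genes for oxidation of linoleate ceramides and the cornified lipid envelope, 8 were higher and 0 lower, against 7.63% of all probe sets higher and 2.47% lower by the same criteria. They include Alox12b and Sdr9c7, and the lists were chosen with earlier results of these data known. On the side of substrate supply stood Cers3, a ceramide synthase of the epidermis (1.13, SE 0.17, limma adjusted p = 0.00559), the elongase gene Elovl1 (0.57, adjusted p = 0.0246), Ugcg, which adds glucose to ceramide (1.04, SE 0.20, adjusted p = 0.0125), and Abca12, the transporter that loads lamellar granules (0.55, adjusted p = 0.0182). Cers3 read 10.73, 11.04, 10.62 and 10.53 in KO and 9.97, 9.29, 9.51 and 9.64 in WT, with no overlap. Cers3 and Ugcg kept their call with each array left out and under each other alternative, unlike Alox12b, Sdr9c7 and Sult2b1. The others were the epoxide hydrolase gene Ephx3, whose enzyme acts on epoxides of linoleate (0.95, adjusted p = 0.0379), and the transglutaminase gene Tgm1, which crosslinks the envelope (1.11, adjusted p = 0.0225). Ephx3 read 10.71, 10.89, 10.33 and 9.98 in KO and 10.12, 9.51, 9.34 and 9.14 in WT, so WT replicate 1 lay above KO replicate 4, as it did for Sult2b1. With single arrays left out, 6 of the 8 fits lost the call of Ephx3, 4 that of Tgm1, 5 that of Elovl1 and 0 that of Abca12.

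For cholesterol sulfate, Sult2b1 was the only gene of a list of 5 in the table. The sulfatase gene Sts, the sulfate donor synthases Papss1 and Papss2, and Rora were not in it. None of 26 genes for cholesterol synthesis and uptake was in the table in either direction, and of 15 cytosolic sulfotransferases Sult2b1 alone was. Of all probe sets 7.63% were in it as higher and 2.47% as lower, and the counts of these 3 lists are too small to set apart from those shares. Among 31 retinoid and short-chain dehydrogenase genes, 5 were higher and 0 lower, against 7.63% and 2.47% of all probe sets. Next to Sdr9c7 these were Dhrs9, a retinol dehydrogenase (2.49, SE 0.55, adjusted p = 0.0213), Lrat, which esterifies retinol (1.10, adjusted p = 0.0300), Crabp2, a retinoic acid carrier (1.0, adjusted p = 0.0493), and Rdh12 (0.58, adjusted p = 0.0363). Dhrs9 read 9.33, 9.12, 7.93 and 7.55 in KO and 7.46, 5.15, 5.44 and 5.92 in WT, and without WT replicate 1 its difference was 2.98. With single arrays left out the call was lost in 4 of 8 fits for Lrat, 5 for Dhrs9 and 6 each for Crabp2 and Rdh12.

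The substrates and products of Alox15 lie in eicosanoid metabolism. Of 24 eicosanoid enzyme genes, 4 were higher and 0 lower, against 7.63% and 2.47% of all probe sets: the phospholipase A family genes Pla2g4e (1.45, adjusted p = 0.0204), Pla2g4b (1.41, adjusted p = 0.0362) and Pla2g2d (0.84, adjusted p = 0.0414), and the prostaglandin E synthase gene Ptges (1.13, SE 0.21, adjusted p = 0.0117). Ptges read 9.40, 9.69, 9.13 and 9.31 in KO and 8.76, 7.83, 8.03 and 8.42 in WT, and like Alox15 it was called with each array left out. Of the 8 fits that left out an array, the call was lost in 1 for Pla2g4e, 5 for Pla2g4b and 7 for Pla2g2d. Of 17 eicosanoid receptor genes, the leukotriene B receptor gene Ltb4r1 was higher (0.72, adjusted p = 0.0478). Its call was lost in 7 of the 8 fits. Of 28 type 2 cytokine genes and their targets, 3 were higher and 0 lower, a count near the 7.63% of all probe sets that were higher. They were the transcription factor gene Stat6 (0.56, SE 0.10, adjusted p = 0.0112), Il1rl1 (1.67, adjusted p = 0.0309) and Clca1 (0.94, adjusted p = 0.0361). Stat6 read 10.24, 10.09, 10.02 and 9.95 in KO and 9.61, 9.43, 9.49 and 9.52 in WT, without overlap. Stat6 was called with each array left out, while Il1rl1 and Clca1 each lost their call in 5 of the 8 fits.

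**Figure D4:**
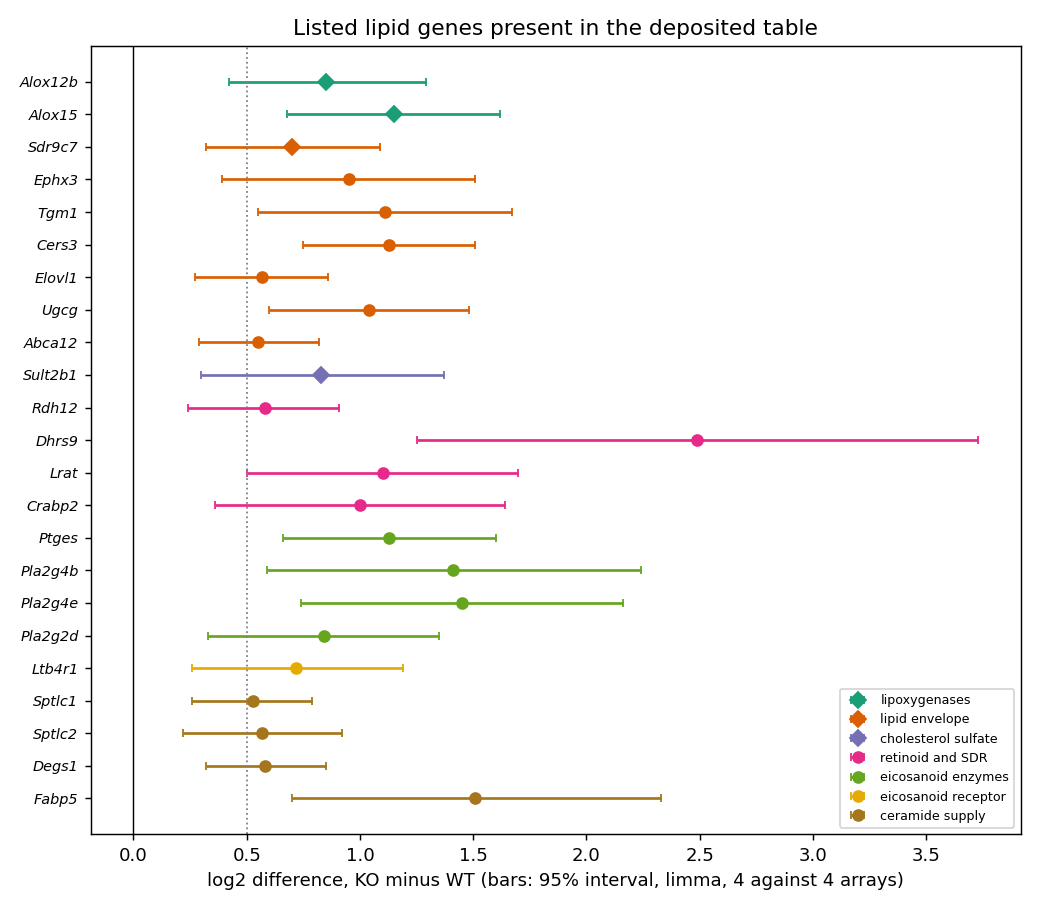
Log2 difference, KO minus WT, with its 95% interval (horizontal axis, limma, 4 against 4 arrays) for the listed lipid genes that the deposited table names, coloured by list; diamonds mark the 4 genes described here and the dotted line the table's limit of 0.5. All points lie above 0, from 0.53 for Sptlc1 to 2.49 for Dhrs9, since the table admits only called genes.

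Markers of cells that could hold these transcripts were set beside them, against 7.63% of all probe sets in the table as higher and 2.47% as lower. Of 12 granular keratinocyte markers, Ivl (1.10), Casp14 (1.95) and Klk7 (0.77) were higher and Cdsn was lower; the mean of all 4 was 10.27 to 11.35 on the KO arrays, against 10.17 to 10.86 on the WT arrays, so the groups overlapped. Without the deleted gene it was 10.52 to 11.69 on the KO arrays, against 9.56 to 10.47 on the WT arrays, over 3 genes that the table admits for their difference. Of 6 suprabasal markers, Krt1 (1.88) and the cadherin gene Dsc1 (0.60) were higher, and of 8 basal markers Itga3 (0.73) was. The part of granular layer cell number in the differences of Alox12b, Sdr9c7 and Sult2b1 was not tested. For Alox15, 0 of 9 eosinophil markers and 0 of 9 macrophage markers were in the table in either direction, counts too small to set apart from the shares of all probe sets. Of 8 neutrophil markers 5 were higher: S100a9 (5.22), S100a8 (4.02), Ly6g (2.77), Cxcr2 (2.53) and Camp (0.85). With single arrays left out, the call was lost in 7 of 8 fits for S100a8, 6 for Ly6g and 4 for Cxcr2. It held throughout for S100a9 and Camp. The means of Ly6g and Camp stood at percentiles 39.9 and 21.4 of all probe sets. Of 8 mast cell markers 2 were higher, Tpsab1 at 4.30 and Tpsb2 at 1.52. The 5 neutrophil markers were admitted by the same contrast, so their mean, 7.78 to 9.57 on KO arrays against 4.44 to 7.27 on WT arrays, is a description. The part of infiltrating cells in the Alox15 difference was not tested. None of 8 sebaceous gland markers was in the table. Of 22 epidermal transcription factor genes, 5 were higher and 0 lower, against 7.63% and 2.47% of all probe sets: Ppard (0.90), Grhl3 (0.80), Cebpb (0.71), Ovol1 (0.63) and Zfp750 (0.55). Each of these 5 lost its call in 5 to 7 of the 8 fits that left out an array.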

How the data were processed

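The authors deposited RMA log2 intensities of 33793 probe sets on 8 arrays. The file headers name Gene Mouse 2.0 ST arrays from Affymetrix. RMA is named by the submitters' processing notes, and its version and options were not given in the sources used here. In addition, the authors deposited a table of log2 fold changes, linear fold ratios and p-values for KO against WT, limited per the file headers to adjusted p under 0.05 and a log2 change of 0.5. Probe counts per probe set and the cross-hybridisation class, in which 3 marks probe sets that also match other transcripts, are deposited as annotation. Tissue was stored for up to 4 weeks and 9 µg of RNA was labelled, per the labels.

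Values were used as deposited. limma 3.58.1 in R 4.3.3 was fitted to all probe sets (two-sided, Benjamini-Hochberg over all), and its p-values differed from the deposited ones by at most 6.68e-08 in relative terms. The test was checked on simulated data. Genes were named from the table's symbols, with the probe set of highest mean per gene. Named genes are the 4 genes, Cdsn, listed genes in the table and the 5 nearest genes by within-group r. The members and lists were chosen with earlier results of these data known. Replicate numbers were not taken as pairs in the main fit. The number of arrays limits precision. Alternatives were other scalings, a filter on dim probe sets, other variance models, array weights, a block and single arrays left out. Python 3.11.15, scipy 1.17.1 and matplotlib 3.10.9 were used.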

Additional observations from a re-analysis of the deposited data

Results flagged for a closer look

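In 128 groups of 4 arrays, from 64 named genes in KO and in WT, 7 single arrays stood far from the others by Dixon's ratio of gap to range, and chance gives about 1 in 20. Among the 4 genes described here this concerned Alox15, whose KO replicate 3 read 5.99 with the other KO arrays at 6.49 to 6.53. Lrp2bp, the gene most like Alox15 within groups, had the same array lowest in KO, at 4.01. It was picked by its r with Alox15, so the shared low array is no separate observation. KO replicate 4 was the low KO array of Degs1, at 10.27, and of Olfr894, at 2.90. Pla2g4e was high in KO replicate 2, at 10.45, and low in WT replicate 2, at 7.48. Sptlc2 was high in WT replicate 1, at 10.51.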

How the results depend on the processing

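The difference of each of the 4 genes kept its direction in all fits. Leaving out single arrays gave 0.74 to 1.03 for Alox12b, 0.62 to 0.87 for Sdr9c7, 0.65 to 1.02 for Sult2b1, 1.03 to 1.33 for Alox15 and -2.60 to -2.13 for Cdsn, and lost the call in 3, 6, 7, 0 and 0 of the 8 fits in that order. After quantile normalization the call was lost for Alox12b (0.66), Sdr9c7 (0.53) and Sult2b1 (0.68), and after median centring for Sdr9c7 (0.61) and Sult2b1 (0.74). It was lost without moderation for Alox12b (0.85), Sdr9c7 (0.70) and Sult2b1 (0.83), with dim probe sets left out for Sdr9c7 (0.70) and Sult2b1 (0.83), and with array weights for Sult2b1 (0.80, adjusted p = 0.0541). The adjusted p over all alternatives was at most 0.0621 for Alox12b, 0.0773 for Sdr9c7, 0.116 for Sult2b1, 0.0382 for Alox15 and 0.0143 for Cdsn. Probe sets called higher numbered 3350, against 1689 after quantile normalization, 1819 after median centring, 595 with dim probe sets left out and 1574 to 2670 with single arrays left out; those called lower numbered 1078, against 1751, 1598, 123 and 582 to 837. The cause of these changes in the counts was not tested. The fit with dim probe sets left out covered fewer probe sets than the main fit. Its counts of 595 and 123 are given without a share of that smaller set, so they cannot be compared directly with the other counts. The fits with single arrays left out had fewer arrays. Same-numbered KO and WT arrays had deviations correlated at 0.548, -0.062, 0.276 and 0.304, against -0.486 to 0.302 for arrays of different number. The labels do not say whether same-numbered arrays belong together, and the main fit did not pair them. With the replicate number as a block the calls were 3917 higher and 1233 lower. The limma adjusted p with that block was 0.0359 for Alox12b, 0.0335 for Sdr9c7, 0.0239 for Sult2b1 and 0.0166 for Alox15. Of the other 59 named genes, 0 changed direction and 23 were called with each array left out; 23 lost their call after quantile normalization and 20 after median centring. Each of the 4 genes has 1 probe set in the table, so another probe set could not be tried.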

Other observations

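Ceramide and fatty acid supply genes, which make the substrate on which Alox12b and Sdr9c7 act, were also in the table. Of 43 listed, 6 were higher in KO and 0 lower, with 7.63% of all probe sets higher by the same criteria. Next to Cers3 and Elovl1 these were the fatty acid carrier gene Fabp5 (1.51, SE 0.36, limma adjusted p = 0.0282), the desaturase gene Degs1 (0.58, SE 0.12, adjusted p = 0.0159), and the serine palmitoyltransferase genes Sptlc2 (0.57, adjusted p = 0.0427) and Sptlc1 (0.53, adjusted p = 0.0223). Fabp5 read 10.78, 10.36, 9.54 and 9.66 in KO and 9.31, 8.89, 8.26 and 7.85 in WT, without overlap. Degs1 and Cers3 were called with each array left out; of the 8 fits, the call was lost in 3 for Sptlc1 and in 5 each for Fabp5, Sptlc2 and Elovl1. The other lists held few or no genes of the table: of 7 striated muscle markers Mylk4 was lower (-1.70, limma adjusted p = 0.0221), and no marker of fibroblasts (6 listed), adipocytes (5) or cartilage (4) was in it. These counts stand against 7.63% of all probe sets higher and 2.47% lower.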
